A study of Homo sapiens with 21 samples.

Results

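Knockdown of CCND1, which encodes cyclin D1, was compared directly with knockdown of CDK4, which encodes one of the kinases that cyclin D1 activates, in irradiated senescent IMR90 cells. IMR90 is an established line of human lung fibroblasts. The comparison took 6 of the 21 libraries of the series, all 3 with CCND1 siRNA and all 3 with CDK4 siRNA, and left out the group that received CDK4 and CDK6 siRNA together. A gene was tested where its normalised read count reached 10 in at least 3 of these 6 libraries, which kept 11165 of the 16383 genes listed. Both groups were wild-type IMR90 cells, and both had been irradiated. They received 5 nM siRNA at 4 and 7 days after irradiation, and poly(A) RNA was collected at day 10. The 6 control libraries had the same treatment with a non-targeting siRNA, NT3 or NT4 (names as in the sample titles), in 3 libraries each. Each target had 1 named siRNA whose sequence is not in the labels, and off-target effects of that reagent cannot be told apart from loss of the target. The labels do not say whether the 3 libraries of a group came from separate cultures, so p-values measure a spread between libraries that may be technical. In the main fit this spread is pooled within groups over all 21 libraries.

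D-type cyclins bind CDK4 or CDK6, and the active complexes phosphorylate the retinoblastoma protein RB and its relatives, which releases E2F factors to transcribe genes for DNA replication. Cyclin D complexes also hold CDK inhibitors of the CIP/KIP family, and INK4 inhibitors such as p16 and p15 bind CDK4 and CDK6 and displace the cyclin. In senescent fibroblasts, where division has ceased, cyclin D1 and p21 are both abundant, and the cells secrete cytokines, proteases and growth factors known together as the senescence-associated secretory phenotype, or SASP.

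Summed over listed genes, these libraries ranged from 15433553 to 16939567 reads, of which the 10 most abundant genes took 7.73 to 8.48%. In a principal component analysis of these 6 libraries, the first component held 54.2% of the variance and placed CCND1 knockdown at -21.9 to -17.3 and CDK4 knockdown at 17.8 to 20.8. All 12 fibroblast markers looked up were expressed, with summed levels of 633875 to 688231 in CCND1 knockdown and 634596 to 685588 in CDK4 knockdown. COL1A1 alone gave means of 252785 and 252709 of these sums. Singly, 4 of the 12 were higher and 1 lower in CCND1 knockdown at limma adjusted p under 0.05 (13.1% and 11.1% of all tested genes). Levels throughout are the authors' normalised read counts, which are not divided by transcript length, and are given in the order of replicates 1 to 3, numbers that follow column order and serve as names only.

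The targeted genes were lowered in their own arm. CCND1 (ENSG00000110092, chr11:69641156-69654474, RefSeq, GRCh38.p14) was at 4552, 4198 and 5149 in CCND1 knockdown, at 49482, 47509.6 and 45723 in CDK4 knockdown and at 25615 to 48813 in the control libraries. CDK4 (ENSG00000135446, chr12:57747727-57752310) was at 1072, 1073 and 1148 in CCND1 knockdown, at 108.9, 105.6 and 109.9 in CDK4 knockdown and at 1158 to 1356 in controls. The groups did not overlap for either gene. CCND1 knockdown left 9.74% of the CCND1 level of the other arm (4633 ± 480.4 against 47572 ± 1880.3, SD, n = 3). CDK4 knockdown left 9.85% of CDK4 (108.1 ± 2.29 against 1098 ± 43.7, SD, n = 3). The exact two-sided permutation p was 0.1 for both, also after adjustment over the 2 tests, the smallest that 3 against 3 libraries can give. In the limma fit the log2 difference, always CCND1 knockdown minus CDK4 knockdown on the log2(normalised count + 1) scale, was -3.36 for CCND1 and 3.33 for CDK4 (limma adjusted p = 1.69e-16 and 5.83e-19).

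**Figure D1:**
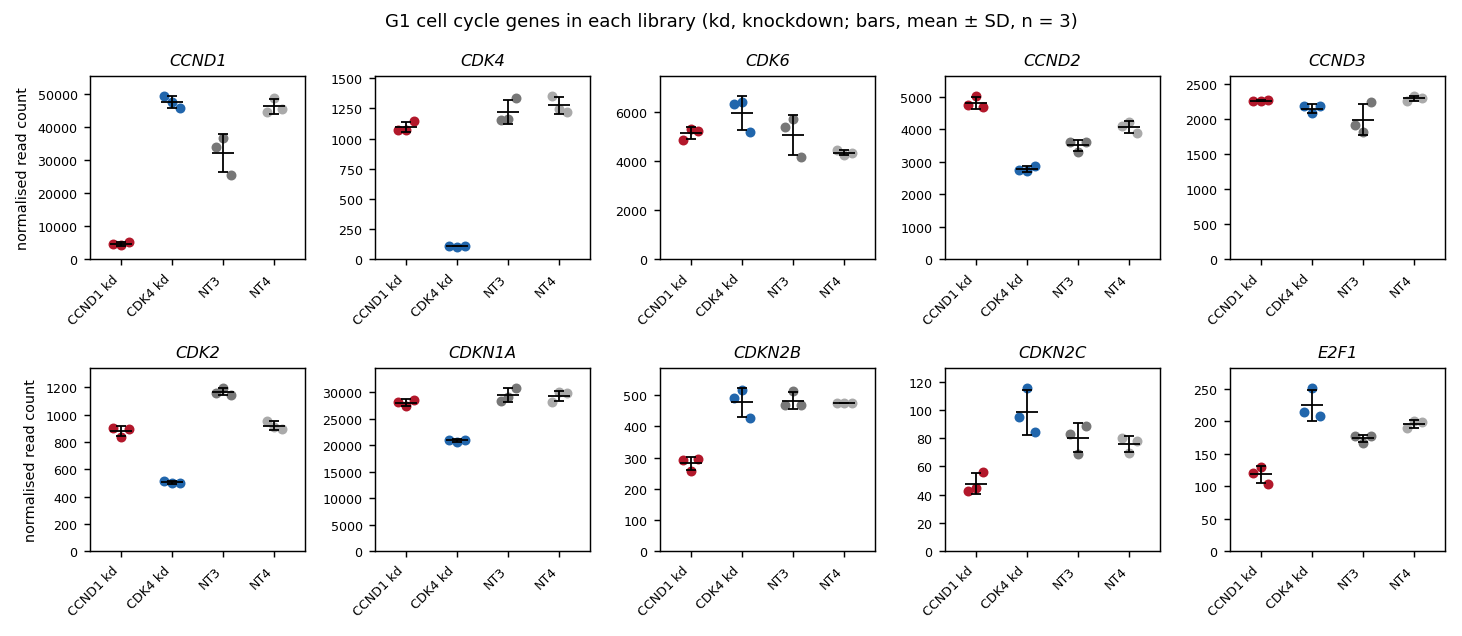
Normalised read counts (vertical axes, from 0) of 10 genes of the cyclin D, CDK and RB machinery in CCND1 knockdown (red), CDK4 knockdown (blue) and the NT3 and NT4 controls (greys). Each point is 1 library and bars are mean ± SD of 3 libraries; CCND1 and CDK4 each stand low in the arm that targets them, while CDK2, CDKN1A and CCND2 stand low in CDK4 knockdown, and CDKN2B, CDKN2C and E2F1 in CCND1 knockdown.

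The comparison sets loss of the cyclin beside loss of its kinase partner. The arms differed at 2703 of 11165 tested genes, or 24.2%, with 1462 (13.1%) higher and 1241 (11.1%) lower in CCND1 knockdown (limma, Benjamini-Hochberg adjusted p under 0.05). The median absolute log2 difference of those genes was 0.41, and 233 genes (2.09%) passed with a log2 difference beyond 1 in size, 87 (0.779%) higher and 146 (1.31%) lower. Of the genes tested, 42 passed the expression filter through 1 arm only, and 13 of these are among the 2703. The levels of the 6 libraries did not overlap between the arms for 5192 genes (46.5%). As a background, the 2 non-targeting siRNAs differed from each other at 3222 genes (28.9%; 15.2% higher and 13.7% lower in NT4) in the same fit. Of these, 201 (1.8%) lay beyond a log2 difference of 1. When each pair was fitted on its own 6 libraries, NT4 and NT3 differed at 984 genes (8.81%; 4.68% higher and 4.13% lower in NT4) and the knockdowns at 3709 (33.2%; 17.9% higher and 15.3% lower in CCND1 knockdown).

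Against the mean of the 6 control libraries, which both arms share, CCND1 knockdown differed at 3592 genes (32.2%) and CDK4 knockdown at 1862 (16.7%). The control mean lay nearer the CDK4 knockdown mean for 957 of the 1462 genes higher in CCND1 knockdown (65.5%) and for 898 of the 1241 lower genes (72.4%). It lay between the arms for 959 and 853 of them respectively. The control mean lay beyond the CDK4 knockdown mean for 380 of the higher and 289 of the lower genes, and beyond the CCND1 knockdown mean for 123 and 99. For some of the genes named in what follows, the difference of each arm from these shared controls is given beside the direct comparison.

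**Figure D2:**
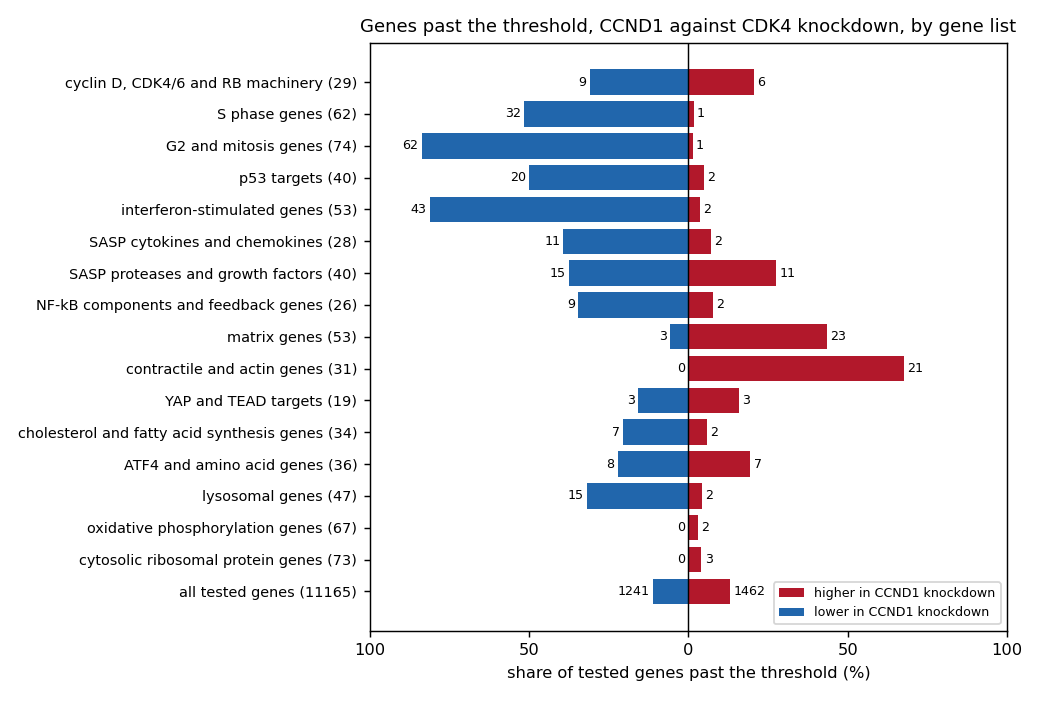
Share of tested genes past the threshold (horizontal axis, percent) in each of 16 gene lists and over all tested genes, with genes higher in CCND1 knockdown to the right and lower to the left; the number of tested members stands in brackets and the number past the threshold at each bar. The lower side reaches 62 of 74 G2 and mitosis genes and 43 of 53 interferon-stimulated genes, and the higher side 21 of 31 contractile and actin genes, beside 1241 and 1462 of all 11165 genes.

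Within the cyclin D, CDK4/6 and RB machinery, 6 of 29 tested genes were higher and 9 lower in CCND1 knockdown. These counts include both targets, which the siRNAs lower by design. The lower count also includes E2F2, which passed the expression filter through CDK4 knockdown alone. Of all tested genes 13.1% were higher and 11.1% lower. The median log2 difference was -0.17 over the list against -0.01 over all tested genes. CCND2, the cyclin D2 gene, was at 4749, 5040.1 and 4693 in CCND1 knockdown and 2762, 2712 and 2876 in CDK4 knockdown, with controls at 3314 to 4240.1 (log2 difference 0.79, SE 0.06, limma adjusted p = 5.18e-09). The arms lay on opposite sides of all 6 controls: the differences from controls were 0.35 (SE 0.05) in CCND1 knockdown and -0.44 (SE 0.05) in CDK4 knockdown. CCND3, the cyclin D3 gene, was at 2258, 2254 and 2272 in CCND1 and 2179, 2081 and 2186 in CDK4 knockdown and did not pass the threshold (log2 difference 0.07, SE 0.06, limma adjusted p = 0.422). CDK6, the other kinase partner, was at 4853, 5318 and 5209.6 against 6324, 6397 and 5163, and its difference did not pass (log2 difference -0.21, SE 0.09, limma adjusted p = 0.104). It passed without CDK4 knockdown replicate 3, the lowest of that arm (-0.31, limma adjusted p = 0.0226). It also passed with quantile normalization (-0.30, 0.0248) and in the fit of the 6 libraries alone (-0.21, 0.0229). Against the controls (4147 to 5689), CDK6 was higher in CDK4 knockdown at 0.35 (SE 0.08, limma adjusted p = 0.0046). CCND1 knockdown did not pass at 0.13 (SE 0.08, limma adjusted p = 0.215).

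CDK2, the partner of cyclins E and A, separated the arms through CDK4 knockdown. It was at 902, 839.7 and 899 in CCND1 knockdown, 513, 497 and 502 in CDK4 knockdown and 896 to 1199 in controls (log2 difference 0.80, SE 0.08, limma adjusted p = 1.19e-07). Every CDK4 knockdown library lay below every control, and the differences from controls were -0.24 (SE 0.07) in CCND1 knockdown and -1.04 (SE 0.07) in CDK4 knockdown. CDKN1A, which encodes p21, a CDK inhibitor induced by p53, was at 28132, 27345 and 28575 in CCND1 knockdown, 21009, 20633 and 20978 in CDK4 knockdown and 28151 to 30843 in controls (log2 difference 0.42, SE 0.05, limma adjusted p = 1.77e-06). Against the controls, CCND1 knockdown did not pass at -0.07 (SE 0.04, limma adjusted p = 0.251), while CDK4 knockdown was lower at -0.49 (SE 0.04, limma adjusted p = 5.99e-08).

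Of the INK4 inhibitor genes, CDKN2A, CDKN2B and CDKN2C were lower in CCND1 knockdown and CDKN2D did not pass. CDKN2B, the p15 gene, was at 291, 258 and 294 in CCND1 knockdown and 492, 516 and 426 in CDK4 knockdown, with controls at 467 to 513 (log2 difference -0.76, SE 0.10, limma adjusted p = 5.15e-06). All CCND1 knockdown libraries lay below all others given here, and CDK4 knockdown did not differ from controls beyond its error, at -0.01 (SE 0.08, limma adjusted p = 0.969). CDKN2C, the p18 gene, was at 42.5, 44.8 and 55.9 against 94.7, 115.7 and 84.4 (log2 difference -1.02, SE 0.19, limma adjusted p = 0.000352). CDKN2A, the locus of p16 and ARF, was at 143, 135 and 122 against 174, 187 and 211 (log2 difference -0.51, SE 0.12, limma adjusted p = 0.00259). CDKN2B overlaps an antisense RNA gene, and the strand setting of the counting is not given in the sources used here. CDKN1B, the p27 gene, had a log2 difference of -0.35 (limma adjusted p = 0.0271) that did not pass without CCND1 knockdown replicate 3 (0.124) or without CDK4 knockdown replicate 1 (0.0609), 2 (0.0791) or 3 (0.0562).

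E2F1, the activating E2F of the G1 to S transition, was at 120.2, 130.2 and 104.04 in CCND1 knockdown, 214, 252 and 208 in CDK4 knockdown and 167 to 200.5 in controls (log2 difference -0.92, SE 0.11, limma adjusted p = 3.39e-06). All 3 CCND1 knockdown libraries lay below, and all 3 CDK4 knockdown libraries above, the control libraries. E2F2, another activator, was at 3.19, 3.2 and 4.91 against 16.1, 17.3 and 22.6, on 3, 3 and 5 reads in CCND1 knockdown. It passed the expression filter through CDK4 knockdown alone, so its difference (-2.05, limma adjusted p = 0.00322) is given as a description. The RB gene RB1 was at 1035, 1109 and 994 against 1172, 1137 and 997 and did not pass (log2 difference -0.07, SE 0.09, limma adjusted p = 0.61). The p107 gene RBL1 was at 127, 144 and 105.02 against 157, 163 and 138 and did not pass either (log2 difference -0.30, SE 0.16, limma adjusted p = 0.183). CDKN1C and CDK7 of this list were not tested because their levels were below the filter. The handling of reads shared by overlapping or similar genes is not given in the sources used here, so a low count need not mean low expression.

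S phase genes build the replication fork and supply nucleotides. Of 62 tested members, 32 were lower in CCND1 knockdown and 1 was higher (11.1% and 13.1% of all tested genes). The list median log2 difference was -0.42. RRM2, the regulated subunit of ribonucleotide reductase, was at 669, 755 and 621 against 1564, 1693 and 1471, with controls at 1079.5 to 1451 (log2 difference -1.21, SE 0.12, limma adjusted p = 1.58e-07). EZH2, the Polycomb methyltransferase and an E2F target, was at 87.2, 61.9 and 98.1 against 171, 203 and 183 (log2 difference -1.18, SE 0.15, limma adjusted p = 4.89e-06). The arms did not overlap for either gene. RAD51AP1, a recombination factor (-1.23), and CDC45, a subunit of the replicative helicase (-1.15), also passed (limma adjusted p = 8.2e-05 and 0.00399). The 1 member higher in CCND1 knockdown was UNG, a uracil-DNA glycosylase of base excision repair, at 408, 379 and 412 against 313, 288 and 279.7 and 357 to 464 in controls (log2 difference 0.44, SE 0.08, limma adjusted p = 0.000165). Against the controls, CDK4 knockdown was lower at -0.47 (SE 0.07, limma adjusted p = 3.23e-05), and CCND1 knockdown did not pass at -0.03 (SE 0.07, limma adjusted p = 0.76).

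G2 and mitosis genes had the largest list median in size of the 16 lists. Of 74 tested members, 62 were lower in CCND1 knockdown and 1 was higher (11.1% and 13.1% of all tested genes). The median log2 difference of the list was -0.97. In this bulk RNA, fewer cells that express such genes and less of their RNA per cell cannot be told apart. CCNB1, cyclin B1, was at 315, 362 and 339 in CCND1 knockdown, 744, 776 and 702 in CDK4 knockdown and 457 to 667 in controls (log2 difference -1.13, SE 0.12, limma adjusted p = 6.45e-07). KIF20A, a kinesin of cytokinesis, was at 192, 202 and 235 in CCND1 knockdown, 537, 620.1 and 555 in CDK4 knockdown and 310.4 to 368 in controls (log2 difference -1.44, SE 0.14, limma adjusted p = 1.35e-07). For both genes the controls lay in a band between the arms that neither arm entered. MKI67, the Ki-67 proliferation antigen, was at 422, 417 and 433 against 1018, 1076 and 869.6, and the lowest control, at 459, stood just above the CCND1 knockdown libraries (log2 difference -1.21, SE 0.14, limma adjusted p = 1.93e-06). BUB1 and TTK, kinases of the spindle checkpoint, and NDC80, a kinetochore protein, had differences of -1.55, -1.46 and -1.51 (limma adjusted p = 6.43e-05, 2.32e-06 and 1.84e-05).

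Set against the shared controls, 59 of the 74 G2 and mitosis genes were lower in CCND1 knockdown (14.8% of all tested genes were), with a list median of -0.63, and 32 were higher in CDK4 knockdown (8.84% of all), with a list median of 0.32. For the S phase list the counts were 32 of 62 lower in CCND1 knockdown and 3 of 62 higher in CDK4 knockdown, with medians of -0.34 and 0.11. CDC25B, a phosphatase that activates cyclin-dependent kinases at mitotic entry, was the 1 mitotic member higher in CCND1 knockdown, at 694, 729.8 and 701 against 532, 387 and 496 (log2 difference 0.60, SE 0.09, limma adjusted p = 2.42e-05). CCND1 knockdown and controls (672 to 769) overlapped. LMNB1, the lamin B1 gene, whose loss marks senescence, was lower in CCND1 knockdown at 96.8, 108.8 and 76.6 against 176, 176 and 202 (log2 difference -0.98, SE 0.18, limma adjusted p = 0.000279). HMGB2, a chromatin protein gene that is also lost in senescence, was at 284, 264 and 249 against 494, 552 and 520.2 (log2 difference -0.97, SE 0.14, limma adjusted p = 2.81e-05).

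Many mitotic promoters carry the cell cycle genes homology region, or CHR, a short element bound by the DREAM and MuvB complexes. Its letters TTTGAA were searched on both strands in the 250 bases before each RefSeq gene start (GRCh38.p14), counting a gene if any listed start held them. They were found in 25 of the 51 G2 and mitosis genes that were lower in CCND1 knockdown and had a RefSeq promoter entry (49.0%), against 16.1% of all 27305 genes and 12.6% of the tested genes. Of 11 members that did not pass, 4 held them. A match is a description of letters, not of a bound site, and matches of the motifs searched here can overlap. The 4 genes with the largest differences among those with a match are shown, chosen after their values were seen, with the match nearest the start in capitals and up to 25 bases on either side: KIF4A (chrX:70290045-70290100, plus strand), NCAPG (chr4:17810919-17810974, plus strand), KIF15 (chr3:44761734-44761789, plus strand) and MKI67 (chr10:128126424-128126477, minus strand). In these genes the capitals began 29 to 35 bases before the start.
KIF4A: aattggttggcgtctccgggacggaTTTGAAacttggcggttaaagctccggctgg
NCAPG: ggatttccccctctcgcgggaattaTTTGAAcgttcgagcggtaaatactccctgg
KIF15: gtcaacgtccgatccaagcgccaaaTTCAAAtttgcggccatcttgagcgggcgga
MKI67: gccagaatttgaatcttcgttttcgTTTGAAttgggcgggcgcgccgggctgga

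**Figure D3:**
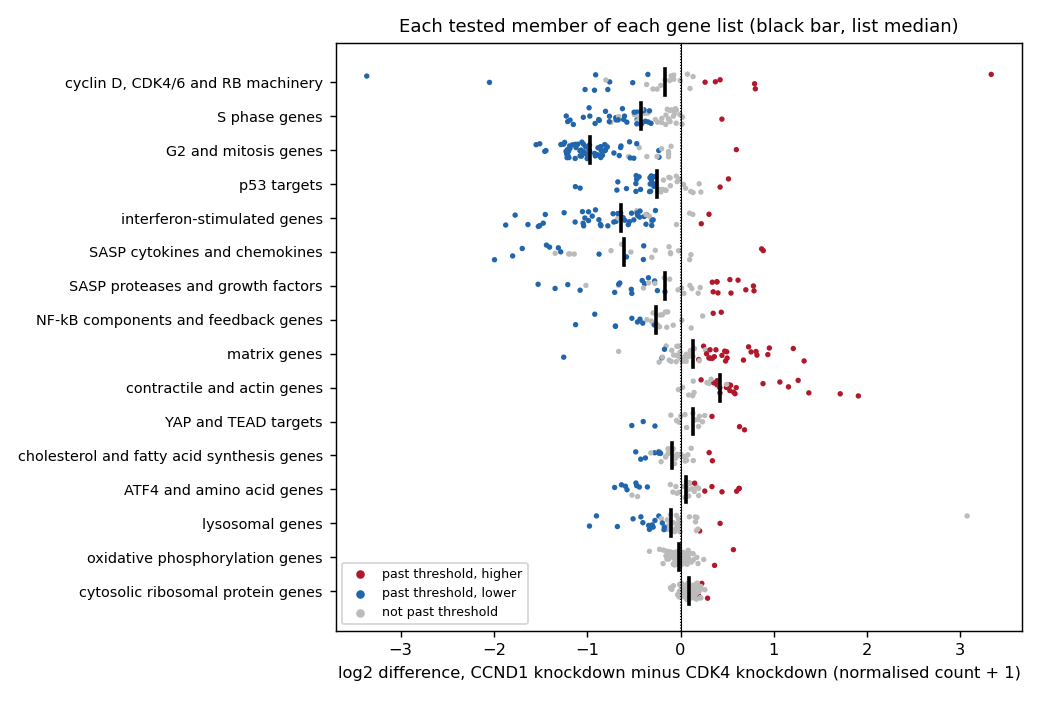
Log2 difference between CCND1 and CDK4 knockdown (horizontal axis) of every tested member of the 16 gene lists, with genes past the threshold in red (higher in CCND1 knockdown) or blue (lower), others in grey, and the list median as a black bar. The G2 and mitosis list is centred at -0.97, the interferon list at -0.64 and the contractile list at 0.42, while oxidative phosphorylation genes lie around -0.01.

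Of 40 tested targets of p53, 20 were lower in CCND1 knockdown and 2 higher (11.1% and 13.1% of all tested genes). The list median log2 difference was -0.25. Between the controls, 12 members were higher and 2 lower in NT4 than in NT3 (15.2% and 13.7% of all). GDF15, a stress-induced cytokine, was at 2789.5, 2499 and 2823 in CCND1 knockdown, 5793, 5501 and 5796 in CDK4 knockdown and 5056 to 7139 in controls (log2 difference -1.08, SE 0.11, limma adjusted p = 3.55e-07). CDK4 knockdown lay inside the control range and CCND1 knockdown below it. SESN1, sestrin 1, an inhibitor of mTORC1 signalling, was at 215, 221 and 211 against 469.7, 504 and 444 (log2 difference -1.13, SE 0.10, limma adjusted p = 3.29e-08). Its controls were at 309, 301 and 322 in NT3 and 457, 409 and 487 in NT4 (NT4 minus NT3 0.53, limma adjusted p = 0.000302). MDM2, the ubiquitin ligase that degrades p53, was at 4302, 4719 and 4779.8 against 6097, 5914 and 5363 (log2 difference -0.33, SE 0.06, limma adjusted p = 0.000279). The 2 members with the opposite direction were CDKN1A, described above, and POLH, the translesion polymerase eta (1822, 1875 and 1714 against 1216, 1345 and 1228; log2 difference 0.51, SE 0.07, limma adjusted p = 9.9e-06). Against the controls, POLH was higher in CCND1 knockdown at 0.63 (SE 0.06, limma adjusted p = 1.01e-07). NT4 and NT3 differed by 0.47 for this gene. The count of 2 higher p53 targets was 4 in the fit of the 6 libraries alone.

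Interferon-stimulated genes are an antiviral program that is active in many senescent cells. Of 53 tested members, 43 were lower in CCND1 knockdown and 2 higher (11.1% and 13.1% of all tested genes). The list median log2 difference was -0.64. IFI44L was at 99.97, 147 and 141 in CCND1 knockdown, 542, 365 and 527 in CDK4 knockdown and 436 to 695 in controls (log2 difference -1.87, SE 0.31, limma adjusted p = 0.000127). MX1, a GTPase that blocks viral ribonucleoproteins, was at 990.1, 1013 and 1221 in CCND1 knockdown, 3245, 2306 and 3342 in CDK4 knockdown and 1997 to 5337 in controls (log2 difference -1.45, SE 0.25, limma adjusted p = 0.000207). Neither gene overlapped between the arms, and CCND1 knockdown lay below all controls for both. BST2, or tetherin, which retains budding virions, was at 62.7, 71.5 and 108.9 against 267, 188 and 300.3 (log2 difference -1.64, SE 0.24, limma adjusted p = 2.6e-05). ISG15, a ubiquitin-like modifier, was at 1742, 1847 and 2085 against 3372, 2677 and 3758 (log2 difference -0.78, SE 0.19, limma adjusted p = 0.00476).

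Relative to the shared controls, 48 of the 53 interferon-stimulated genes were lower in CCND1 knockdown (14.8% of all tested genes were) and 5 in CDK4 knockdown (7.84%), with list medians of -0.70 and -0.08. The controls were not alike for this list: 16 of 53 members were lower in NT4 than in NT3 (13.7% of all), with a median of -0.28. TRIM25, a ubiquitin ligase of RIG-I signalling, and TRIM22, another antiviral TRIM protein, were higher in CCND1 than in CDK4 knockdown (0.31 and 0.22, limma adjusted p = 0.0106 and 0.011). TRIM25 did not pass without CCND1 knockdown replicate 3 (0.0687), and neither gene passed without CDK4 knockdown replicate 2 (0.0839 and 0.0512). Relative to controls, TRIM25 was lower in both arms, at -0.36 in CCND1 and -0.67 in CDK4 knockdown (SE 0.07 each, limma adjusted p = 0.000678 and 1.6e-06). TRIM22 was higher in CCND1 knockdown at 0.24 and did not pass in CDK4 knockdown at 0.01 (SE 0.05 each, limma adjusted p = 0.00194 and 0.893). Among members below the filter and not tested were TAP1, PSMB8 and PSMB9, under the same limit on low counts as CDK7.

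The interferon-stimulated response element, or ISRE, is bound by factors of the IRF family. Its core, GAAA then any bases NN then GAAA, occurred on either strand in the 250 bases before the start in 23 of the 38 interferon-stimulated genes that were lower in CCND1 knockdown and had a promoter entry (60.5%), against 3.71% of all genes and 3.51% of tested genes. Of 6 members that did not pass, 4 held them. The 4 genes with the largest differences among those with a match are shown with the match nearest the start in capitals, chosen after their values were seen: IFI44L (chr1:78620350-78620409, plus strand), BST2 (chr19:17405720-17405779, minus strand), RSAD2 (chr2:6877607-6877666, plus strand) and MX1 (chr21:41431829-41431888, plus strand). RSAD2 and MX1 carry the motif on the opposite strand, so their capitals read TTTC first. IFI44L and BST2 held 2 matches each in the window and the others 1.
IFI44L: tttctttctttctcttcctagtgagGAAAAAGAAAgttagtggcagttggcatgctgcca
BST2: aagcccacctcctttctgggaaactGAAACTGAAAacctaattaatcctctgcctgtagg
RSAD2: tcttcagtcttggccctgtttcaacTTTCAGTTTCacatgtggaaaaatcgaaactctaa
MX1: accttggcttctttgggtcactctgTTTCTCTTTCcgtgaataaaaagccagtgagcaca

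Of 28 tested cytokines and chemokines of the SASP, 11 were lower in CCND1 knockdown and 2 higher (11.1% and 13.1% of all tested genes). The list median log2 difference was -0.60. CXCL8, the neutrophil chemokine IL-8, was at 1003, 1085 and 2268 in CCND1 knockdown, 3506, 2721 and 3744 in CDK4 knockdown and 1601 to 6662 in controls (log2 difference -1.28, SE 0.30, limma adjusted p = 0.00336). The arms did not overlap, but CCND1 knockdown replicate 3 stood above the rest of its arm. CXCL5, a related chemokine, was at 44.7, 65.1 and 94.2 against 202, 189.8 and 252 (log2 difference -1.70, SE 0.31, limma adjusted p = 0.000361). IL1A, the upstream SASP cytokine interleukin 1 alpha, was at 56.4, 33.1 and 104.04 against 152, 151 and 162 (log2 difference -1.40, SE 0.40, limma adjusted p = 0.0128), and did not pass without CCND1 knockdown replicate 2 (0.1). IL6, a central SASP cytokine, was at 452, 476 and 953 against 973, 657 and 973. The arms overlapped and it did not pass (log2 difference -0.53, SE 0.27, limma adjusted p = 0.161), but it did without CCND1 knockdown replicate 3 (-0.88, limma adjusted p = 0.0182). The count of 11 fell to 5 without CCND1 knockdown replicate 1, to 6 without CCND1 knockdown replicate 2 and to 6 without CDK4 knockdown replicate 3. CXC chemokines are similar in sequence and the assignment of reads shared among them is not given in the sources used here.

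CCL2, the monocyte chemokine MCP-1, went the other way. It was at 1942, 2085 and 3098 in CCND1 knockdown and 1352, 1082 and 1352 in CDK4 knockdown, with controls at 1446 to 3028 (log2 difference 0.89, SE 0.17, limma adjusted p = 0.000471). CCND1 knockdown overlapped the controls and all CDK4 knockdown libraries lay below them. VCAM1, an adhesion receptor for leukocytes, was likewise higher in CCND1 knockdown, at 1679, 2084 and 2534 against 1218, 797 and 1497 (log2 difference 0.87, SE 0.19, limma adjusted p = 0.00202). The 2 control siRNAs differed from each other over this list: 18 of 28 members were lower in NT4 than in NT3 (13.7% of all tested genes), with a median of -0.75. CXCL8 was at 5131, 5495 and 6662 in NT3 and 1601, 2583 and 1639.9 in NT4. For that reason, differences from the control mean are not given for these cytokines.

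Of 26 tested NF-kB components and feedback genes, 9 were lower and 2 higher in CCND1 knockdown (11.1% and 13.1% of all tested genes). The list median log2 difference was -0.26. The 2 control siRNAs gave the same counts over this list. In NT4, 9 members were lower and 2 higher than in NT3 (13.7% and 15.2% of all), with a median of -0.17. TNFAIP3, the A20 enzyme that restrains NF-kB signalling, was at 454, 496 and 847 against 1192, 953 and 1139 (log2 difference -0.92, SE 0.22, limma adjusted p = 0.00364). Its controls differed by -0.66 (NT4 minus NT3, limma adjusted p = 0.0283). BIRC3, an inhibitor of apoptosis in the TNF receptor complex, was at 456, 439 and 653 against 916, 749 and 815 (log2 difference -0.70, SE 0.16, limma adjusted p = 0.00205). Here too CCND1 knockdown replicate 3 was the highest of its arm, without overlap with CDK4 knockdown. IKBKE, a kinase of innate immune signalling, was higher in CCND1 knockdown at 428, 425 and 489 against 316, 317 and 356 (log2 difference 0.44, SE 0.08, limma adjusted p = 0.000218). CDK4 knockdown lay below all controls, which ranged from 444 to 518. The other member on this side, TNIP2, an inhibitor of NF-kB activation, did not pass without CCND1 knockdown replicate 1 (0.0891) or 2 (0.101) or CDK4 knockdown replicate 1 (0.0893) or 2 (0.102), nor with a block by the run of header codes (0.0513).

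Proteases and growth factors of the SASP were split, with 11 of 40 tested genes higher and 15 lower in CCND1 knockdown. Of all tested genes 13.1% were higher and 11.1% lower. The list median log2 difference was -0.17. In NT4, 13 members were lower and 7 higher than in NT3 (13.7% and 15.2% of all), with a median of -0.14. AREG, which encodes the EGF receptor ligand amphiregulin, was lower at 122, 133 and 144 against 392, 388 and 376 (log2 difference -1.53, SE 0.15, limma adjusted p = 2.68e-07). EREG, which encodes the related ligand epiregulin, was lower at 242, 288 and 344 against 804, 747 and 661 (log2 difference -1.34, SE 0.15, limma adjusted p = 8.07e-07). The controls lay between the arms, at 207 to 326 for AREG and 386 to 548 for EREG. ANGPTL4, an inhibitor of lipoprotein lipase, was at 512, 463 and 465 against 1049, 1126 and 1156 (log2 difference -1.21, SE 0.13, limma adjusted p = 4.09e-07). The controls differed by -0.81 for this gene (NT4 minus NT3, limma adjusted p = 5.87e-05). On the higher side were genes of the insulin-like growth factor binding proteins. IGFBP5 was at 138066, 151571 and 152384 in CCND1 knockdown and 91194, 79342 and 85650.1 in CDK4 knockdown (log2 difference 0.79, SE 0.10, limma adjusted p = 9.11e-06). IGFBP3 was at 18734, 18671 and 19898 against 13057, 10792 and 13696 (log2 difference 0.62, SE 0.10, limma adjusted p = 0.00012). Its controls differed by more, at 33939, 28397 and 38064.5 in NT3 and 7376, 9319 and 7833 in NT4. The NT4 minus NT3 difference was -2.03 (limma adjusted p = 1.71e-11), and both arms lay inside the control range.

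The metalloproteinase genes did not move as one. MMP1, an interstitial collagenase, was at 8661, 8926 and 9261 against 6014, 6654 and 5952 and higher in CCND1 knockdown (log2 difference 0.53, SE 0.09, limma adjusted p = 0.0001). MMP3, stromelysin, was at 348, 304 and 386 against 539, 542 and 543 and lower (log2 difference -0.65, SE 0.15, limma adjusted p = 0.00334). SERPINB2, a serpin that inhibits urokinase, was at 1195, 1298 and 1466 against 1408, 1227 and 1292 and did not pass (log2 difference 0.01, SE 0.11, limma adjusted p = 0.965).

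**Figure D4:**
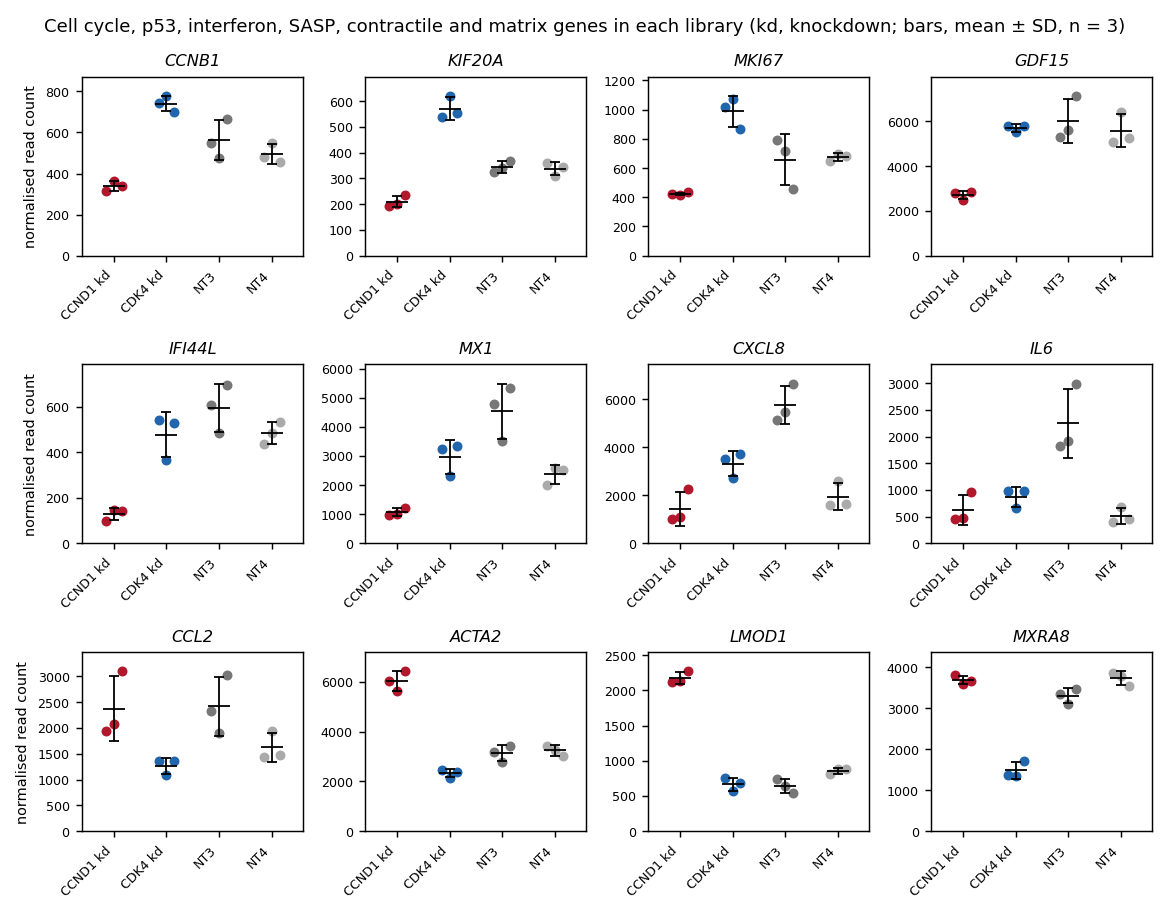
Normalised read counts (vertical axes, from 0) of 12 genes of the cell cycle, p53, interferon, SASP, contractile and matrix lists in CCND1 knockdown (red), CDK4 knockdown (blue), NT3 and NT4 (greys); each point is 1 library and bars are mean ± SD of 3. LMOD1 and ACTA2 stand high and GDF15, IFI44L and MX1 low in CCND1 knockdown, MXRA8 and CCL2 stand low in CDK4 knockdown, and CXCL8 and IL6 differ widely between NT3 and NT4.

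Of 31 tested contractile and actin genes, 21 were higher in CCND1 knockdown and 0 lower (13.1% and 11.1% of all tested genes). The list median log2 difference was 0.42. IRAG1, an inositol trisphosphate receptor regulator of smooth muscle, was at 2248, 2137 and 2237 in CCND1 knockdown, 635, 549 and 582 in CDK4 knockdown and 479 to 1313 in controls (log2 difference 1.91, SE 0.12, limma adjusted p = 3.14e-10). LMOD1, leiomodin 1, which nucleates actin filaments, was at 2112, 2134 and 2270.1 in CCND1 knockdown, 748, 569 and 680.2 in CDK4 knockdown and 541 to 887 in controls (log2 difference 1.71, SE 0.10, limma adjusted p = 5.02e-11). Both were above every control library in CCND1 knockdown. For IRAG1 the controls differed by 0.91 (NT4 minus NT3, limma adjusted p = 9.56e-06). ACTA2, smooth muscle alpha actin and a myofibroblast marker, was at 6018, 5644 and 6429 against 2441, 2146 and 2384 (log2 difference 1.38, SE 0.07, limma adjusted p = 3.35e-11). CNN1, calponin 1, was at 2905, 2825 and 2895 against 1210.3, 1162 and 1225 (log2 difference 1.26, SE 0.08, limma adjusted p = 1.4e-10). TAGLN, transgelin, was at 26015, 26372 and 24308 against 17034, 15871 and 17823 (log2 difference 0.60, SE 0.08, limma adjusted p = 5.47e-06).

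The position of the shared controls varied among these genes. For LMOD1 the log2 difference from controls was 1.55 (SE 0.08) in CCND1 knockdown and -0.16 (SE 0.08) in CDK4 knockdown, and for CNN1 it was 1.20 (SE 0.07) in CCND1 knockdown and -0.06 (SE 0.07) in CDK4 knockdown. ACTA2 gave 0.92 (SE 0.06) in CCND1 knockdown and -0.45 (SE 0.06) in CDK4 knockdown. TAGLN gave 0.91 (SE 0.07) in CCND1 knockdown and 0.31 (SE 0.07) in CDK4 knockdown. Over the list, 23 of 31 members were higher than controls in CCND1 knockdown (17.4% of all tested genes were), with a median of 0.46. In CDK4 knockdown, 4 were higher and 4 lower (8.84% and 7.84% of all), with a median of 0.01. The controls were not alike here: 12 of 31 members were higher and 2 lower in NT4 than in NT3 (15.2% and 13.7% of all). The median NT4 minus NT3 difference was 0.18, with 0.43 for LMOD1, 0.28 for TAGLN, 0.18 for CNN1 and 0.05 for ACTA2.

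Serum response factor binds the CArG box, which both strands read alike. The motif was found in the 250 bases before the start of 5 of 17 contractile and actin genes that were higher in CCND1 knockdown and had a promoter entry (29.4%), in 3 of 8 that did not pass, and in 1.44% of all genes and 1.59% of tested genes. The 4 genes with the largest differences among those with a match, chosen after their values were seen, are ACTG2 (chr2:73892910-73892969, plus strand), SRF itself (chr6:43171234-43171268, plus strand), ACTN1 (chr14:68977703-68977762, minus strand) and CNN2 (chr19:1026494-1026553, plus strand). Capitals mark the match nearest the start.
ACTG2: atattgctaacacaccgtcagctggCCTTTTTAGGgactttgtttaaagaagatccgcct
SRF: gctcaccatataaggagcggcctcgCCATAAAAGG
ACTN1: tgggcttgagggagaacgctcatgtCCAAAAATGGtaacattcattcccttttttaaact
CNN2: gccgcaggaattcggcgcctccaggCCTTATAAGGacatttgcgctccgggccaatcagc

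Of 53 tested matrix genes, 23 were higher in CCND1 knockdown and 3 lower (13.1% and 11.1% of all tested genes). The list median log2 difference was 0.13, and 0.05 after quantile normalization. The 2 control siRNAs also differed over this list, with a larger median of 0.24 (NT4 minus NT3). Of the 53 members, 23 were higher and 6 lower in NT4 than in NT3 (15.2% and 13.7% of all). COL15A1, a basement membrane collagen, was at 1204, 1467 and 1363 against 651, 495 and 603 (log2 difference 1.21, SE 0.14, limma adjusted p = 2.05e-06). FBN2, fibrillin 2, was at 5316, 5945 and 5554 against 3187, 2863 and 2653 (log2 difference 0.95, SE 0.16, limma adjusted p = 0.000114). MXRA8, a cell surface protein of the matrix remodelling family, was at 3807, 3597 and 3679 in CCND1 knockdown and 1377, 1351 and 1719.5 in CDK4 knockdown (log2 difference 1.33, SE 0.07, limma adjusted p = 4.68e-11). Its controls (3107 to 3873) overlapped CCND1 knockdown and lay above CDK4 knockdown. Its differences from controls were 0.07 (SE 0.06) in CCND1 knockdown and -1.25 (SE 0.06) in CDK4 knockdown. POSTN, periostin, ran against the list, at 1216, 1349 and 1191 against 2848, 3223 and 2879 (log2 difference -1.25, SE 0.08, limma adjusted p = 2.22e-10). Relative to the control mean it was at -0.58 (SE 0.07) in CCND1 knockdown and 0.67 (SE 0.07) in CDK4 knockdown. The controls themselves differed by as much, at 1515, 1428 and 1426 in NT3 and 2527, 2122 and 2583 in NT4 (NT4 minus NT3 0.72, limma adjusted p = 5.81e-07). The count of 3 lower members was 1 without CCND1 knockdown replicate 1, 2 or 3, without CDK4 knockdown replicate 3 or with no expression filter, and 5 after quantile normalization. The other 2 were TGFBI, a secreted adhesion protein, and SPARC, a matrix glycoprotein. SPARC did not pass without any 1 of the 6 libraries (limma adjusted p from 0.0577 to 0.129). COL1A1, the type I collagen alpha 1 chain, was at 247743, 270672 and 239940.0 against 246219, 243842 and 268066, which overlapped, and did not pass (SE 0.10 of its log2 difference, limma adjusted p = 0.999).

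Targets of YAP and TEAD passed in both directions, with 3 of 19 tested genes higher and 3 lower in CCND1 knockdown. Together 31.6% of the list passed, not far from the 24.2% of all tested genes (13.1% higher and 11.1% lower). Between the controls, 4 members were higher and 8 lower in NT4 than in NT3 (15.2% and 13.7% of all). The list median log2 difference between the arms was 0.13, and 13 of the 19 lay above 0. The higher count was 8 in the fit of the 6 libraries alone, and the median was 0.061 without CDK4 knockdown replicate 2 and 0.062 after quantile normalization. CCN2, connective tissue growth factor, was higher at 14830.2, 17391 and 16944 against 10794, 8606 and 11292 (log2 difference 0.69, SE 0.10, limma adjusted p = 2.24e-05). AXL, a receptor tyrosine kinase, was lower at 6379.8, 6693 and 6608 against 9574, 9790.4 and 8920.5 (log2 difference -0.52, SE 0.05, limma adjusted p = 3.02e-07). CCN2 differed between the controls as well, at 19766, 18198 and 16777 in NT3 and 9479.8, 9852 and 7522 in NT4.

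Metabolic and organelle lists showed smaller differences. Of 47 tested lysosomal genes, 15 were lower in CCND1 knockdown and 2 higher (11.1% and 13.1% of all tested genes). The list median log2 difference was -0.10. In NT4, 15 members were lower and 8 higher than in NT3 (13.7% and 15.2% of all), with a median of -0.04. NPC1, the lysosomal cholesterol exporter, was at 1672, 1420.1 and 1738 against 3033, 3313 and 2678 (log2 difference -0.90, SE 0.12, limma adjusted p = 9.38e-06). CTSS, cathepsin S, was at 95.7, 74.7 and 80.5 against 161, 179 and 155 (log2 difference -0.98, SE 0.18, limma adjusted p = 0.000276). The arms lay on opposite sides of the control mean for NPC1, at -0.46 (SE 0.10) in CCND1 knockdown and 0.44 (SE 0.10) in CDK4 knockdown. For CTSS the values were -1.21 (SE 0.15) in CCND1 knockdown and -0.23 (SE 0.15) in CDK4 knockdown, while its controls differed by -0.73 (NT4 minus NT3, limma adjusted p = 0.00359). The 2 higher lysosomal members included IDS, a sulfatase, which did not pass without any 1 of the 6 libraries (limma adjusted p from 0.0569 to 0.119). The higher lysosomal count was 1 without any 1 library other than CCND1 knockdown replicate 2, without a filter or after quantile normalization, 5 after median centring and 7 in the fit of the 6 libraries alone.

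Genes of cholesterol and fatty acid synthesis gave 7 of 34 lower and 2 higher, with a median log2 difference of -0.09. Together 26.5% of this list passed, near the 24.2% of all tested genes. NT4 and NT3 differed at more of its members, 18 lower and 2 higher in NT4 (13.7% and 15.2% of all), with a median of -0.22. FDFT1, squalene synthase, was lower at 1343, 1295 and 1271 against 1757, 1808 and 1691 (log2 difference -0.43, SE 0.06, limma adjusted p = 6.2e-06). Its controls differed by -0.24 (NT4 minus NT3, limma adjusted p = 0.00283). Among the higher ones, STARD4, a sterol carrier, did not pass without CCND1 knockdown replicate 2 (0.111) or 3 (0.0838) or CDK4 knockdown replicate 3 (0.124). ATF4 and amino acid genes gave 8 of 36 lower and 7 higher (41.7% in all, beside 24.2% of tested genes), with a median of 0.06. The higher count was 4 without CDK4 knockdown replicate 1 or 2 and 11 in the fit of the 6 libraries alone. In NT4, 16 members of this list were lower and 1 higher than in NT3 (13.7% and 15.2% of all), with a median of -0.18. SLC7A11, the cystine importer, was lower in CCND1 knockdown at 2014, 2161 and 2016 against 3657, 3591 and 2905 (log2 difference -0.71, SE 0.13, limma adjusted p = 0.000383). The controls differed by -0.73 for SLC7A11 (NT4 minus NT3, limma adjusted p = 0.000258). ATF5, a related stress factor, was higher at 512, 647 and 516 against 377, 348 and 350.4 (log2 difference 0.63, SE 0.10, limma adjusted p = 6.63e-05), and CDK4 knockdown lay below all controls, which ranged from 575 to 828.

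Oxidative phosphorylation genes passed for 2 of 67 tested members, and both, COX6C of complex IV (0.57, limma adjusted p = 0.00407) and SDHC of complex II (0.37, limma adjusted p = 0.000377), were higher in CCND1 knockdown. The fit of the 6 libraries alone called 5 members lower. Cytosolic ribosomal protein genes passed for 3 of 73, all higher in CCND1 knockdown by log2 differences of 0.19 (RPL4) to 0.29 (RPL3). That count was 23 in the fit of the 6 libraries alone and 0 after quantile normalization or without any 1 of 5 of the libraries (all but CDK4 knockdown replicate 3). Both lists stood below the 24.2% of all tested genes that passed.

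Several of the largest differences were in genes of none of the lists. ANO1, a calcium-activated chloride channel, was at 899, 892 and 821 in CCND1 knockdown and 275, 238 and 279 in CDK4 knockdown (log2 difference 1.72, SE 0.09, limma adjusted p = 3.49e-11). MCAM, the adhesion molecule CD146, was at 3592, 3437 and 3490.1 against 1318, 1328 and 1329 (log2 difference 1.40, SE 0.07, limma adjusted p = 1.1e-11). LBH, a transcriptional cofactor, was at 6791, 6854 and 6601 against 2732, 2176 and 2781 (log2 difference 1.40, SE 0.08, limma adjusted p = 5.55e-11). CEMIP, a hyaluronan-degrading protein, was at 6290.5, 7085 and 6935 against 2476, 1982 and 2540.0 (log2 difference 1.54, SE 0.15, limma adjusted p = 1.1e-07). The control mean lay between the arms for these 4 genes. For MCAM the differences from it were 0.65 (SE 0.06) in CCND1 knockdown and -0.75 (SE 0.06) in CDK4 knockdown, and for LBH they were 0.52 (SE 0.07) in CCND1 knockdown and -0.89 (SE 0.07) in CDK4 knockdown. MGARP, a mitochondrial protein, and MASP1, a protease of the lectin complement pathway, had differences of 1.27 and 1.26 (limma adjusted p = 3.55e-07 and 5.47e-06).

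PDZD8, a lipid transfer protein at contacts of the endoplasmic reticulum, was low in CCND1 knockdown. It was at 322, 260.3 and 333 in CCND1 knockdown, 901, 839 and 721 in CDK4 knockdown and 635 to 896 in controls (log2 difference -1.43, SE 0.11, limma adjusted p = 4.28e-09). All CCND1 knockdown libraries lay below all the others, and the CDK4 knockdown difference from controls was -0.01 (SE 0.09, limma adjusted p = 0.971). SLC16A6, a monocarboxylate transporter family member, was at 267, 267 and 341 against 856, 927 and 792, with controls between them at 369 to 650.2 (log2 difference -1.56, SE 0.25, limma adjusted p = 9.76e-05).

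**Figure D5:**
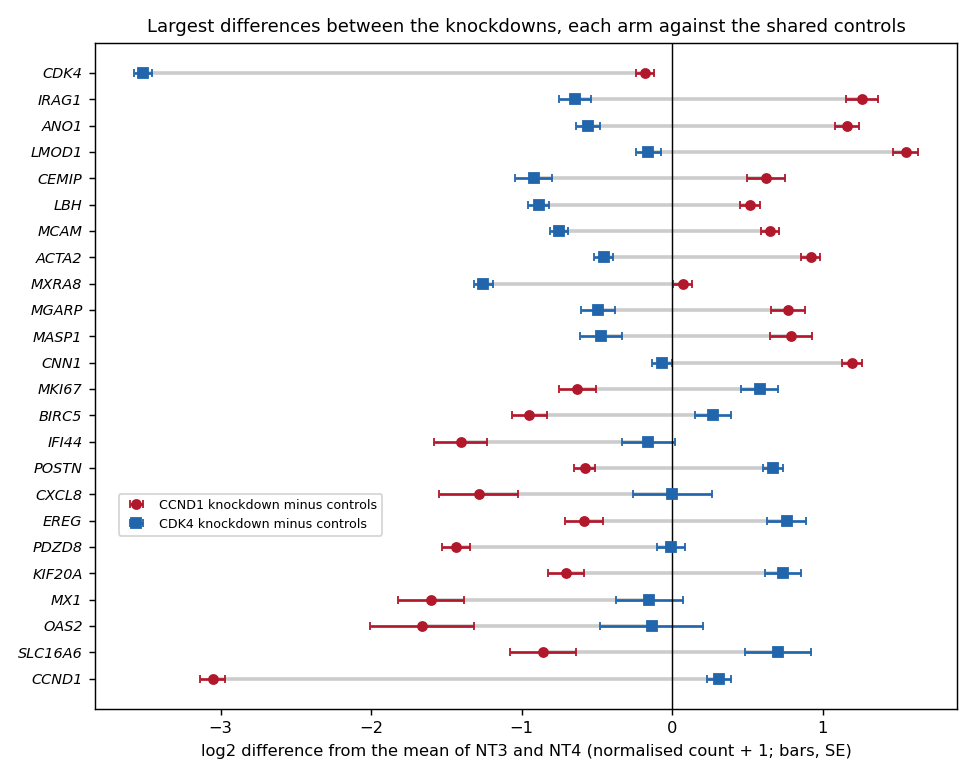
Log2 difference of CCND1 knockdown (red circles) and CDK4 knockdown (blue squares) from the mean of the shared NT3 and NT4 libraries (horizontal axis; bars are SE) for the 12 genes with the largest rises and the 12 with the largest falls between the knockdowns under the naming rule. MCAM, LBH and KIF20A have the arms on opposite sides of 0, PDZD8 and CNN1 depart in CCND1 knockdown, and MXRA8 departs in CDK4 knockdown.

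Most markers of other cell types were below the filter. Of 12 epithelial markers 7 were tested. KRT18 was lower and KRT19 higher in CCND1 knockdown, KRT5 was at 0 in all 6 libraries, and the summed level was 2041 to 2224 in CCND1 knockdown and 2120 to 2437 in CDK4 knockdown. Of 9 endothelial markers 2 were tested, and TEK, the angiopoietin receptor, was higher in CCND1 knockdown (2853 to 3255 against 2186 to 2474), while EMCN was at 0 in all 3 CCND1 knockdown libraries. Summed immune markers reached 16.0 to 31.4 in CCND1 knockdown and 36.5 to 47.4 in CDK4 knockdown, with CD3D, MS4A1 and AIF1 at 0 in all 6, and of the 2 tested among 11 neither passed. Their part in the differences above was not tested.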

How the data were processed

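The deposited values are expression signals that the authors normalised, called normalised counts per the file headers. Dividing each column by the value of 1 read gave whole reads (tolerance 0.1) for 100% of values in 20 of the 21 libraries. The reads of 1 library of the combined CDK4 and CDK6 knockdown could not be recovered. The submitters' processing notes name Trimmomatic 0.38.1, HISAT2 2.2.1, featureCounts 2.0.3, FastQC 0.74, MultiQC, DESeq2 2.11.40.8 and hg38 (GRCh38); the annotation and strand setting are not given in the sources used here. The table lists 16383 genes.

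Log2(value + 1) of genes at 10 or more in 3 or more of the 6 libraries went into a limma fit (version 3.58.1, R 4.3.3) over all 21 libraries, with a mean for each group and a trended variance. Tests were two-sided, adjusted by Benjamini-Hochberg over 11165 genes, at a threshold of 0.05. Lists are described by counts and medians without a set test. Reads were also fitted with edgeR 4.0.16 and DESeq2 1.42.0 in those 20 libraries. The fit was tested on simulated data.

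Named genes were a panel, the 12 largest rises and falls (libraries of the arms not overlapping, higher arm above the median gene mean of 489.2), and up to 4 members per list plus 2 of the minority direction. Members and lists were chosen with earlier results of these data known, and the genes given most room were picked with values in view. Promoter letters and gene positions come from RefSeq (GRCh38.p14). Some genes of the lists are not reported here. Column names show a group without a replicate number.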

Additional observations from a re-analysis of the deposited data

How the results depend on the processing

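The count of 2703 genes stayed within 1.5 times under all 17 alternatives: 2675 and 2778 with pseudocounts of 0.1 and 10, 2559 with no filter, 2524 with a mean of at least 100, 2728 with median centring, 2719 with quantile normalization, 2506 with the 18 irradiated libraries, 3709 with the 6 libraries alone, 2702 with edgeR, 2820 with DESeq2, and 2010 to 2252 with 1 library left out. Higher genes made up 54.1% of it and 51.5 to 58.1% over the scalings. Genes beyond a log2 difference of 1 numbered 233, but 153 with a pseudocount of 10 and 118 with a mean of at least 100, which shrink or remove low genes. The NT4 against NT3 count was 984 in their own libraries against 3222. SERPINB2, not past the threshold under any alternative, changed sign with quantile normalization (-0.024) and without CCND1 knockdown replicate 3 or CDK4 knockdown replicate 2 (-0.069 to 0.078 over the libraries left out). So did COL1A1 with median centring (0.014), edgeR (0.0026), and without CCND1 knockdown replicate 1 or 3 or CDK4 knockdown replicate 3 (-0.050 to 0.043 over the libraries left out). With quantile normalization the COL1A1 difference was 0.00. SASP cytokines lower in CCND1 knockdown numbered 7, not 11, with a pseudocount of 0.1 or a mean of at least 100. Over 116 named genes, 1875 of the alternative values kept their direction and side of the threshold, 75 fell short of it and 4 moved past it. The other 9, all of SERPINB2 and COL1A1, changed sign or came to 0.00. No column name shows a replicate number, so a pairing by the labels' numbers could not be fitted. A replicate block by the run of header codes, chosen after seeing the data, gave 2587 genes. Deviations from the group mean correlated between CCND1 and CDK4 knockdown libraries of the same run with r of 0.20, 0.05 and 0.25. Pairs from different runs were not compared, so these r do not show whether a run deviates together. The number of libraries, 3 in each arm, and reads at genes such as E2F2 limit precision.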

Other observations

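The groups outside the comparison give further levels for some of its genes. MKI67 was at 8163 ± 327 in proliferating cells, labelled as untreated, at 415 ± 57.4 in CDK6 knockdown and at 98.5 ± 12.5 in the combined CDK4 and CDK6 knockdown (SD, n = 3), beside 424 ± 8 in CCND1 and 988 ± 106.4 in CDK4 knockdown. CDK2 was at 2286 ± 117 in proliferating cells, 485 ± 11 in CDK6 knockdown and 281 ± 40.7 in the combined knockdown, beside 880.2 ± 35.1 and 504 ± 8.28 in the 2 arms. MXRA8 was at 4622 ± 60.8 in CDK6 knockdown and 2209 ± 114.4 in the combined knockdown, beside 3694 ± 106.2 in CCND1 and 1482 ± 206 in CDK4 knockdown. PDZD8 was at 875 ± 46.7 in proliferating cells, 851 ± 19.9 in CDK6 knockdown and 785 ± 21.5 in the combined knockdown, all above its 305 ± 39.1 in CCND1 knockdown.

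The contractile and stress genes were also measured in CDK6 knockdown. LMOD1 was at 2794 ± 107.3 there and 1951 ± 102.6 in the combined knockdown, beside 2172 ± 85.7 in CCND1 and 666 ± 90.2 in CDK4 knockdown. GDF15 was at 1752 ± 258 and 1824 ± 177 in those groups, beside 2704 ± 178 and 5697 ± 169. IFI44L, almost silent in proliferating cells at 2.7 ± 1.42, was at 120.1 ± 57.2 in CDK6 knockdown and 37.2 ± 1.64 in the combined knockdown, beside 129.5 ± 25.8 and 478 ± 97.8. These groups were not tested against the 2 arms here.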
